A study of Mus musculus with 8 samples.

Results

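Chemokines are small secreted proteins that steer white blood cells, and they act through receptors on those cells that signal through G proteins. They are named by the spacing of their first cysteines as the CC, CXC and CX3C families, with L for ligands and R for receptors. Some are made without inflammation and place lymphocytes and macrophages in the gut wall, and others are induced when tissue is injured or infected. The genes described here are the rows of the count table whose symbol begins with Ccl, Cxcl, Ccr, Cxcr, Cx3cl or Cx3cr and a number. This rule took 43 of 16130 genes, 30 ligands and 13 receptors, by their symbols alone. It was chosen with earlier results of these data known.

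RNA came from the distal colon of mice with the genotype Tcf4Het/+ ApcMin/+, which both groups carried. ApcMin is a truncating allele of the tumour suppressor Apc, and mice with it grow intestinal adenomas. One group of 4 libraries was from mice kept for 4 months in environmentally enriched housing (EE 1 to EE 4), and the other group of 4 was from conventional, non-enriched housing over the same time (NE 1 to NE 4). Age, sex, strain and the treatment of tumours within the tissue were not stated in the labels used here, nor was whether each library is a separate animal, so p-values measure only the spread between these samples.

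The libraries held between 4735764 (EE 1) and 10586851 (NE 3) counts, and levels are given as CPM, read counts divided by a scaled library size. All 8 distal colon markers had reads in every library, the factor Hoxb13 between 181 and 259 CPM. All 8 had lower values in EE (median log2 fold change −0.43), with 0 at an edgeR adjusted p under 0.05 and 1, Aqp8, at an unadjusted p under 0.05. Their summed level was 12612, 9485, 8499 and 8562 CPM in NE 1 to NE 4 and 7344, 9751, 3792 and 6367 CPM in EE 1 to EE 4, lowest in EE 3 and EE 4. Hoxb13 went otherwise, at 236 CPM in EE 3 and at its highest, 259 CPM, in EE 4. Library EE 4 stood apart from the other libraries. It held the lowest value of the 8 for 26.0% of all 14311 genes tested and the highest for 25.9%. In the authors' deposited table the sign of the fold change was opposite to EE minus NE for 97.8% of genes tested, 38 of 38 chemokine genes among them. Whether that table is a ratio of NE to EE, or the column names are exchanged, cannot be told apart here, so EE and NE stand for the column labels.

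The ligands that attract neutrophils lie beside each other on chromosome 5, and the starts of 3 of them share a short sequence that is shown first because their values are compared library by library further on. The lines below give the 250 bases before the RefSeq start of each gene, read 5′ to 3′ on the gene's strand in GRCm38.p6, with the searched run in capitals. Cxcl1 is at chr5:90890995-90891244 (plus strand), Cxcl2 at chr5:90903649-90903898 (plus strand), Cxcl3 at chr5:90785851-90786100 (plus strand) and the interferon-induced Cxcl10 at chr5:92348890-92349139 (minus strand).
Cxcl1: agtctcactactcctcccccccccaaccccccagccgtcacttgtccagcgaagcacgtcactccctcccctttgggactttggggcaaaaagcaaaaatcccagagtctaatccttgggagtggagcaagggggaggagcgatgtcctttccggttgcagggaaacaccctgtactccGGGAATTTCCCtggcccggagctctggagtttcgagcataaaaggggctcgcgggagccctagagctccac
Cxcl2: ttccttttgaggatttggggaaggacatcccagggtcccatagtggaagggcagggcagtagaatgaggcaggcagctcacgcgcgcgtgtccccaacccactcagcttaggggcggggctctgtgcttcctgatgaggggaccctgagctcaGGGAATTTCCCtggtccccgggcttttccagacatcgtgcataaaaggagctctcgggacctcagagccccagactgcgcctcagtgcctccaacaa
Cxcl3: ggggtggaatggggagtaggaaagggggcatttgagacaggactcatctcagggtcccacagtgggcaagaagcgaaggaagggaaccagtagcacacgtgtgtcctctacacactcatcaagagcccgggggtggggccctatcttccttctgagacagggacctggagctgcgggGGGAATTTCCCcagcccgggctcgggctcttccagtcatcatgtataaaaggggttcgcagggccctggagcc
Cxcl10: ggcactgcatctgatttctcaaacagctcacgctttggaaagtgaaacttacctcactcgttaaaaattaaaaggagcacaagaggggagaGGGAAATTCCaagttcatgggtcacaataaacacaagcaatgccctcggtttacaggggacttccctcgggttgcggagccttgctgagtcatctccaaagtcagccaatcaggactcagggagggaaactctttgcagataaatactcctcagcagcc
The longest run of letters that the Cxcl1, Cxcl2 and Cxcl3 windows share is GGGAATTTCCC, of 11 bases. It holds the decamers GGGAATTTCC and, on the other strand, GGGAAATTCC, which overlap and are forms of the site bound by NF-kappaB, a factor known to switch on these genes in inflammation. Both decamers were searched on both strands. The run of 11 bases ends 61, 87 and 63 bases before the start. In Cxcl10 the match is GGGAAATTCC and ends 150 bases before the start. Of 32851 windows of 250 bases in the RefSeq table, 46 (0.14%) held a decamer and 14 (0.0426%) held the run of 11 bases. RefSeq windows were found for 30 of the 43 genes, and 4 of these held a decamer. Cxcl1, Cxcl2 and Cxcl3 hold it by construction, since the decamers were taken from the run they share. Only the match in Cxcl10 was not fixed in advance, so the 4 are not compared with the share of all windows. A match is a description of the letters and does not show binding.

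The first question was whether chemokine genes differed between the 2 kinds of housing. None passed the test. Of the 43 genes 38 had enough counts to be tested, and 0 had a Benjamini-Hochberg adjusted p under 0.05 with edgeR's quasi-likelihood test, against 0% of all genes tested (0 of 14311). At an unadjusted p under 0.05 there were 2, Ccl6 and Ccl21a, both at lower values in EE. That is 5.26% of the chemokine genes tested, against 9.48% of all genes tested in either direction, 3.75% in the lower direction and 5.73% in the higher one. In 0 of the 38 did the 4 EE values stand clear of the 4 NE values, against 4.89% of all genes tested (2.87% higher and 2.02% lower in EE). Over all genes limma-voom called 0 and DESeq2 called 12. Both called 0 chemokine genes, with the same 2 at an unadjusted p under 0.05.

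Values in EE were lower in 29 of the 38 (76.3%), with a median log2 fold change of −0.24, where 49.7% of all genes tested were lower and the median was 0.0021. With no filter on low counts 33 of 43 were lower, with the same median of −0.24. These counts rested on few libraries. Without EE 4 the median was −0.034, with 22 of 40 lower. Without NE 4 it was −0.092, with 20 of 39 lower, and without EE 1 it was −0.12, with 23 of 40 lower. Of the 38 genes 16 were lower and 5 higher in each of the 8 fits that left out 1 library, and the other 17 changed sign in at least 1 of them. Of the 21 that kept their sign, 20 had a log2 fold change that moved by over 1.5 times in at least 1 of these fits, the exception being Ccl6.

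**Figure D1:**
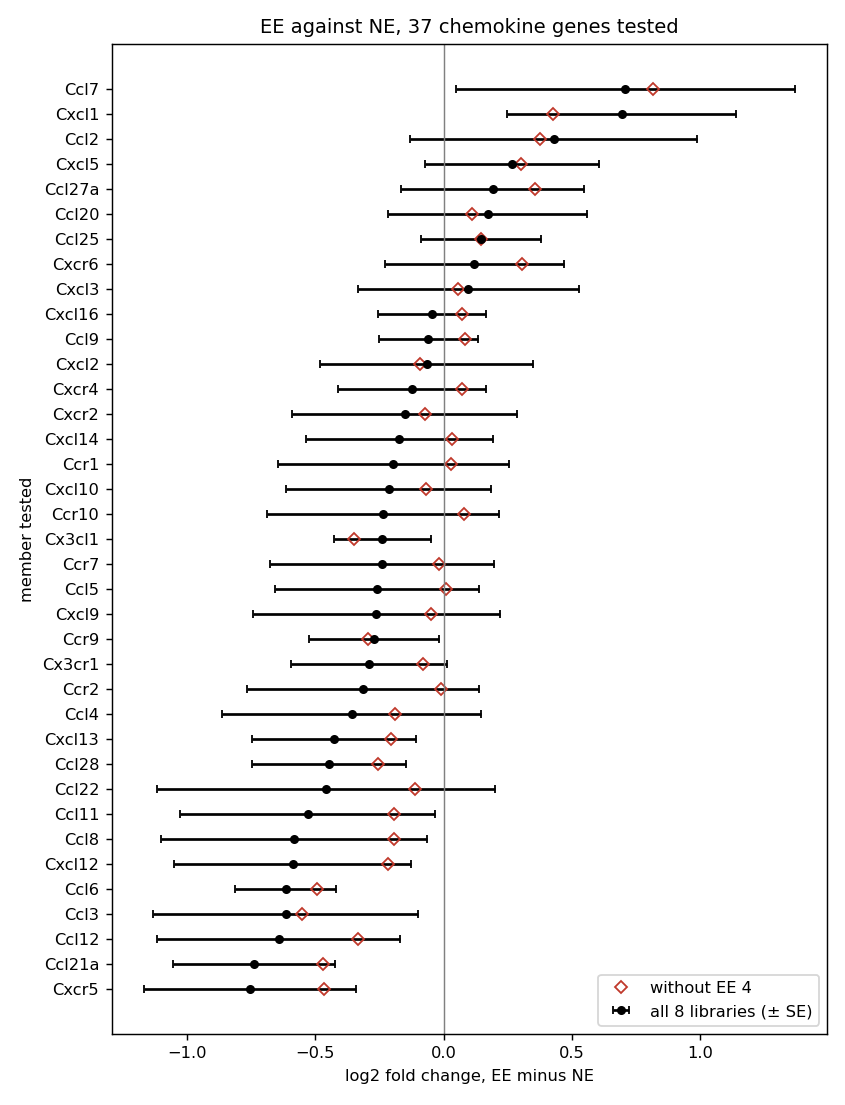
Log2 fold change of EE minus NE for 37 of the 38 chemokine genes tested (black, ± SE, n = 4 libraries a group), with the value of the fit without library EE 4 (red diamonds). Most genes lie left of 0 with all 8 libraries, and most red diamonds lie nearer to 0, where the median over the chemokine genes tested was −0.034 against −0.24.

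The extreme values fell in a few libraries. EE 1 held the lowest value of the 8 libraries in 13 of the 38 genes and EE 4 in 18, so that 31 (81.6%) had their lowest value in one of these 2 libraries. Over all genes tested these libraries held the lowest value for 11.5% and 26.0%. The highest value was in NE 4 for 12 genes, in EE 3 for 10 and in EE 2 for 8, against 13.7%, 15.5% and 8.97% of all genes tested. Set against the NE range, EE 1 lay below all 4 NE libraries in 25 of the 38 genes and above them in 0, and EE 4 lay below in 26 and above in 2. EE 3 lay below in 9 and above in 12, and EE 2 lay below in 3 and above in 9. The enriched group therefore held both the libraries with the lowest values and libraries with high ones. In 35 of the 38 genes the fold between the highest and lowest library was larger within EE than within NE. Neither the counts against the NE range nor this fold was computed over all genes tested. They are therefore not read as particular to chemokine genes. Over all genes tested EE 4 held the lowest value for 26.0% and the highest for 25.9%.

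**Figure D2:**
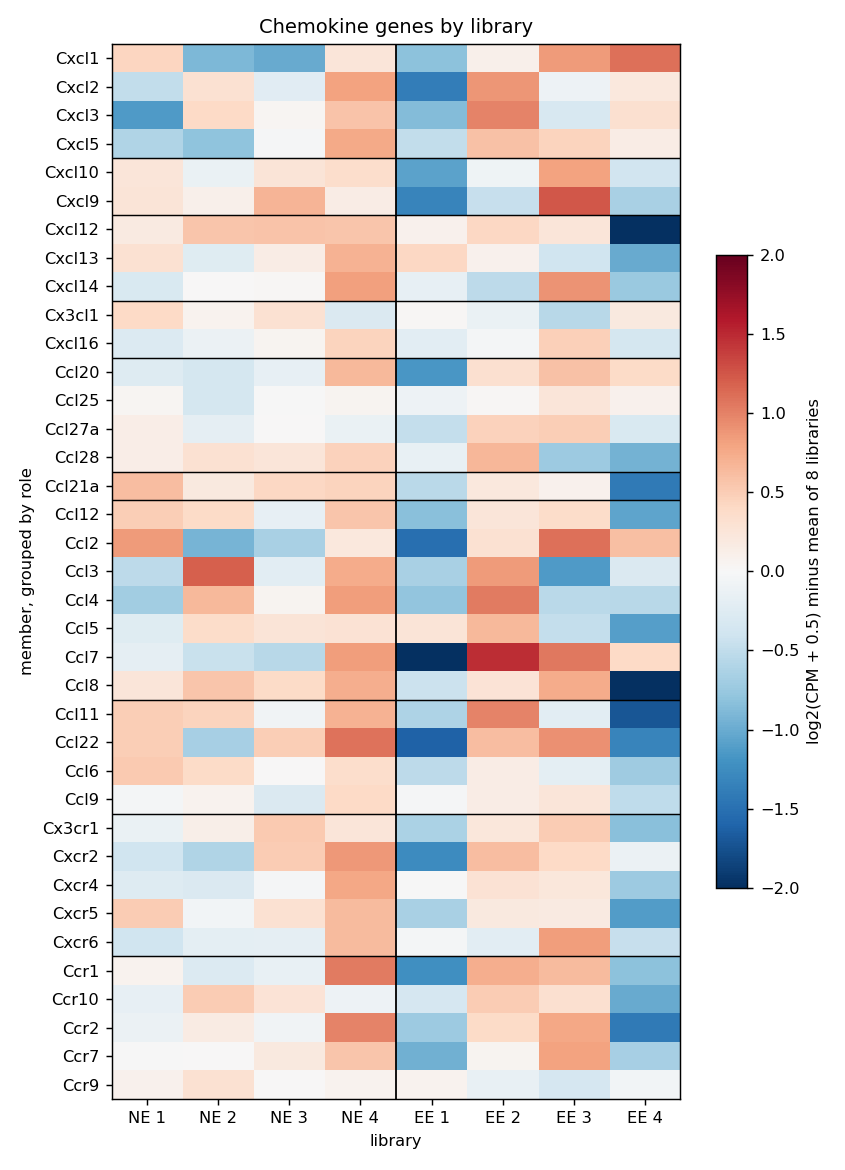
Level of 37 of the 38 chemokine genes tested in each library, as log2(CPM + 0.5) relative to the average of that gene across all 8 libraries, with colours ending at −2 and 2. Rows are grouped by role, from ligands at the top to receptors at the bottom, and the black vertical line parts NE from EE. The columns of EE 1 and EE 4 are blue in most rows, and those of NE 4, EE 2 and EE 3 are mostly red.

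**Figure D3:**
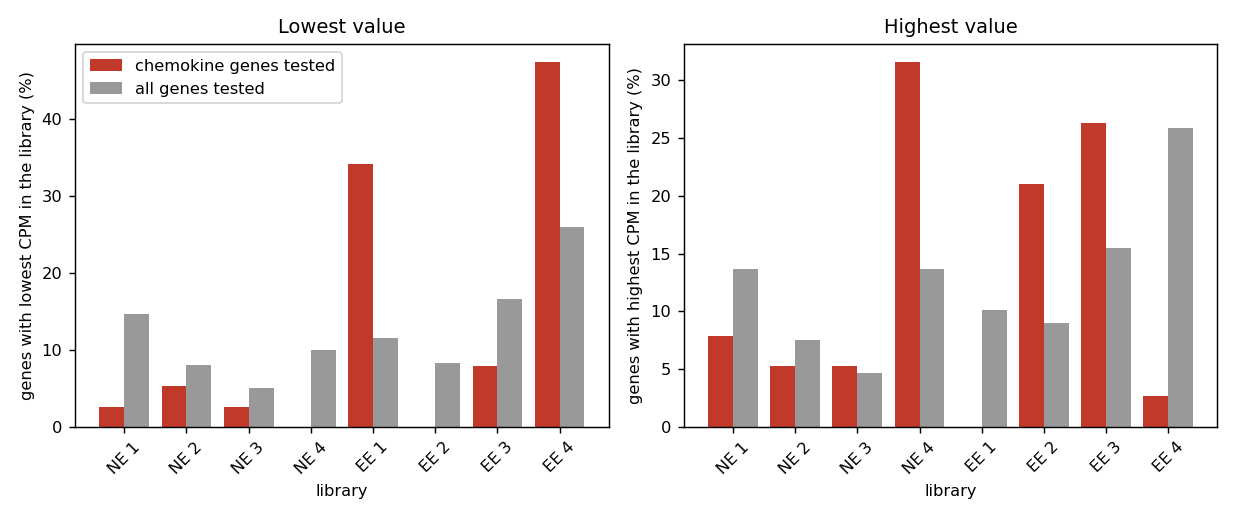
Percentage of genes whose lowest (left) or highest (right) CPM of the 8 libraries was in each library, for the 38 chemokine genes tested (red) and all 14311 genes tested (grey). EE 1 and EE 4 hold 13 and 18 of the lowest values, and NE 4 holds 12 of the highest.

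Summed markers of several cell types that make or answer chemokines were also low in EE 4, and most of these sums in EE 1. Summed macrophage markers (9 of 9 in the table, such as Csf1r and C1qa) were at 126 CPM in EE 4, 222 CPM in EE 1, 272 CPM in EE 2, 391 CPM in EE 3, and 294 to 337 CPM in NE. Summed T cell markers (10 of 10) were at 21.4 CPM in EE 4, 22.7 CPM in EE 1, 41.7 CPM in EE 2, 41.7 CPM in EE 3, and 35 to 51.7 CPM in NE, B cell markers (8 of 8) at 7.61 CPM in EE 4, 14.4 CPM in EE 1, 48.2 CPM in EE 2, 21.9 CPM in EE 3, and 26.1 to 57.2 CPM in NE, and fibroblast markers (7 of 7) at 448 CPM in EE 4, 1140.0 CPM in EE 1, 1851 CPM in EE 2, 1975 CPM in EE 3, and 1458 to 1693 CPM in NE. The T cell marker Trac was highest in EE 4, at 5.71 CPM (1.42 to 3.44 in NE). Every other T cell marker lay below all of NE there. The epithelial markers (9 of 9) were at 11886 CPM in EE 4, 14038 CPM in EE 1, 15673 CPM in EE 2, 8593 CPM in EE 3, and 13496 to 19417 CPM in NE. Of these, Cdh1 and Krt18 lay above all of NE in EE 4, and Muc2 and Vil1 within its range. No marker of macrophages, T cells, fibroblasts or epithelium was at 0 in any library, and among the B cell markers Pax5 was at 0 in EE 4. The part of cell content in the chemokine values was not tested. In bulk RNA fewer cells of a type and less RNA per cell cannot be told apart.

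Per kilobase of annotated exon Ccl6 stood first in NE, at 281 CPM per kb, and its lowest NE library (range 225 to 323) lay above the highest of any other chemokine gene. Cxcl5 came next at 73.4 (range 42.8 to 127), then Ccl28 at 38.6 (34.7 to 43.6), Cxcl2 at 32 (19.9 to 49.2) and Cxcl14 at 26.4 (18.5 to 40.6). From Cxcl5 on, each gene's range overlapped that of the next. The receptors were led by Ccr1, at 14.7 CPM per kb (10.1 to 25.2), and Cxcr4, at 11.8 (8.88 to 18.7). These levels use exon lengths of GENCODE M21, and which annotation the counts used is not given in the sources used here.

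Ccl6, a ligand of Ccr1 made by macrophages and other myeloid cells (chr11:83587882-83593087, minus strand, GRCm38), had the smallest p of the 38. It was at 579, 523, 404 and 514 CPM in NE 1 to NE 4 and 278, 445, 350.1 and 245 CPM in EE 1 to EE 4. All 4 EE values were below 3 of the 4 NE values, and only EE 2 lay above the lowest of NE, NE 3. It averaged 505 ± 73.4 CPM (SD, n = 4) for NE and 329.7 ± 88.6 CPM (SD, n = 4) for EE. The log2 fold change was −0.62 (SE 0.20), with an adjusted p of 0.520 from edgeR. Ccl6 had an unadjusted p under 0.05 in every one of the 15 alternative settings, and its log2 fold change over the fits without 1 library ran from −0.79 to −0.49. Counts of Ccl6 made up 30.0% to 43.4% of all chemokine counts in NE and 27.5% to 31.5% in EE. A non-coding gene overlaps it on the opposite strand.

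Ccl9, which also binds Ccr1 and lies next to Ccl6 (chr11:83572919-83578636, minus strand), was at 45.8, 49.3, 38.3 and 62.5 CPM in NE 1 to NE 4 and 46.3, 52.4, 55.6 and 33.1 CPM in EE 1 to EE 4. Here the groups overlapped widely, and the log2 fold change was −0.060 (SE 0.19). The receptor Ccr1, found on monocytes and neutrophils, was at 36.2, 28.5, 31 and 71.3 CPM in NE 1 to NE 4 and 14.4, 57.4, 53.6 and 19.2 CPM in EE 1 to EE 4. Its highest value was in NE 4 and its lowest in EE 1, and both the log2 fold change, −0.20 (SE 0.45), and its sign depended on single libraries, with 0.19 without NE 4 and 0.030 without EE 4.

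The neutrophil-attracting ligands act on Cxcr2. Cxcl5 was at 92.7, 79.7, 138 and 237 CPM in NE 1 to NE 4 and 99.2, 211, 191 and 156 CPM in EE 1 to EE 4, and averaged 137 ± 71.2 CPM (SD, n = 4) for NE and 164 ± 49 CPM (SD, n = 4) for EE. It was low in NE 1, NE 2 and EE 1 and highest in NE 4, and the groups overlapped. Cxcl2 was at 41.2, 71.8, 49.6 and 102 CPM in NE 1 to NE 4 and 22.1, 108, 54.2 and 67.2 CPM in EE 1 to EE 4. Its lowest value was in EE 1 and its highest were in EE 2 and NE 4. Cxcl3 was at 6.47, 19.8, 15.3 and 22.2 CPM in NE 1 to NE 4 and 7.86, 29.9, 11.8 and 18.5 CPM in EE 1 to EE 4, again highest in EE 2 and NE 4, and lowest in NE 1.

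Cxcl1, the ligand whose start carries the same run of 11 bases as Cxcl2 and Cxcl3, was ordered otherwise. It was at 21.9, 8.46, 7.79 and 19.2 CPM in NE 1 to NE 4 and 8.92, 17.4, 29.6 and 35.2 CPM in EE 1 to EE 4. Its highest values were in EE 4 and EE 3, while EE 1 lay among the low NE libraries. Cxcl1 averaged 14.4 ± 7.29 CPM (SD, n = 4) for NE and 22.8 ± 11.9 CPM (SD, n = 4) for EE. The log2 fold change was 0.69 (SE 0.45), with an adjusted p of 0.582 from edgeR, and 0.43 without EE 4. In the authors' deposited table Cxcl1 was the 1 chemokine gene with an FDR under 0.05, at 0.0340 and a log2 fold change of −0.46, whose sign is that of higher counts in the EE columns. DESeq2 run on the counts gave Cxcl1 a log2 fold change of 0.68 with an adjusted p of 0.595.

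Cxcr2, the receptor of these 4 ligands on neutrophils, was at 6.16, 5.3, 12 and 15.6 CPM in NE 1 to NE 4 and 3.18, 13, 11.2 and 7.61 CPM in EE 1 to EE 4. It was highest in NE 4 and EE 2 and lowest in EE 1. Summed neutrophil markers, of which 7 of 8 were in the table and 0 at zero counts in a library, were at 188, 217, 325 and 910.0 CPM in NE 1 to NE 4 and 136, 649.6, 506 and 364 CPM in EE 1 to EE 4. The sum was highest in NE 4 and EE 2 and lowest in EE 1, and was made up largely of S100a8 and S100a9. Single markers differed in order. Ly6g was lowest in EE 3 (17.5 CPM) and at 39.5 CPM in EE 1, and Mmp8 and Retnlg were lowest in NE 1 and Ngp in NE 2. The 4 ligands summed to 162 to 380.1 CPM (NE) and 138 to 366 CPM (EE), with NE 4 and EE 2 highest and EE 1 lowest. The part of neutrophil content in these values was not tested.

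**Figure D4:**
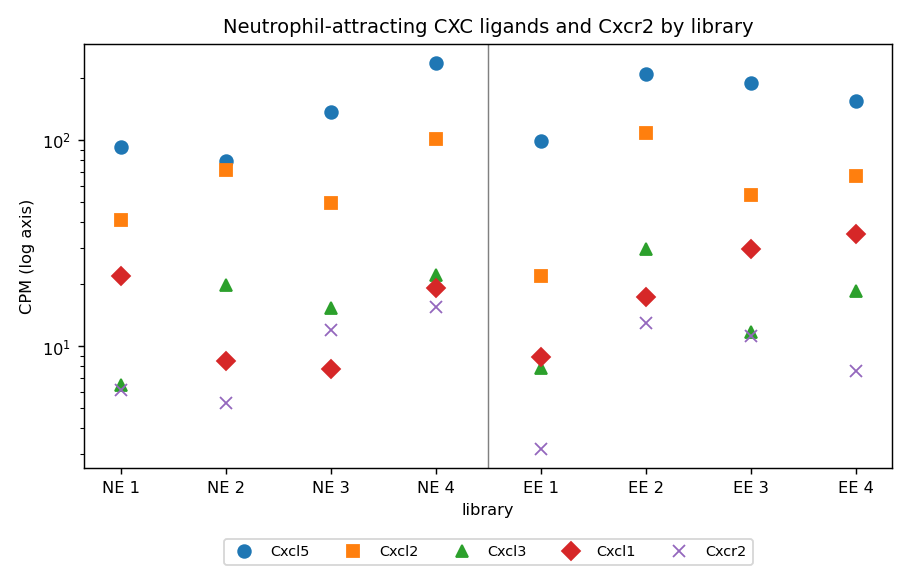
CPM (log axis) of Cxcl5, Cxcl2, Cxcl3, Cxcl1 and their receptor Cxcr2 in each of the 8 libraries, 1 point for each gene and library, to be compared within a gene since CPM does not account for gene length. Cxcl5 and Cxcl2 are high in NE 4 and EE 2, and Cxcl1 is highest in EE 4.

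Ccl28, made by the epithelium of the colon, draws IgA-secreting plasma cells that carry Ccr10. The gene (chr13:119623819-119654359, plus strand) was at 168, 189, 180.4 and 211 CPM in NE 1 to NE 4 and 138, 241, 91.9 and 79.1 CPM in EE 1 to EE 4. The NE values lay close together, whereas EE 2 was the highest of the 8 and the other 3 EE libraries lay below all of NE. Ccl28 averaged 187 ± 18.1 CPM (SD, n = 4) for NE and 137 ± 73.6 CPM (SD, n = 4) for EE. The log2 fold change was −0.45 (SE 0.30), with an adjusted p of 0.594 from edgeR. Without EE 2 it was −0.87, with an edgeR adjusted p of 0.101. Without EE 4 it was −0.25. Ccr10 had few reads, 8, 16, 20 and 8 reads in NE 1 to NE 4 and 5, 12, 13 and 3 reads in EE 1 to EE 4, and overlaps Cntnap1 on the opposite strand. Its log2 fold change was −0.24 (SE 0.45), and 0.078 without EE 4. Summed plasma cell markers (7 of 7 in the table) were at 840.1 CPM in EE 4, 2201 CPM in EE 1, 3334 CPM in EE 2, 3816 CPM in EE 3, and 2902 to 4942 CPM in NE. In EE 4 Sdc1 went the other way, at 457 CPM against 391 to 436 CPM in NE. Every other marker of this list lay below all of NE in EE 4, Igha at 197 CPM against 1356 to 2151 CPM. The part of plasma cells in the Ccr10 values was not tested. Summed epithelial markers were lowest in EE 3 and EE 4 (8593 and 11886 CPM against 13496 to 19417 CPM in NE). Ccl28 was lowest in the same libraries. In EE 4 Cdh1 (1299 CPM) and Krt18 (861 CPM) lay above all of NE, Muc2 and Vil1 within its range, and the rest of the list below. Summed distal colon markers were also lowest in EE 3 and EE 4, but share Car1, Slc26a3, Muc2 and Krt20 with the epithelial list. Among them Hoxb13 was highest in EE 4 (259 CPM). The part of these markers in the Ccl28 values was not tested.

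Ccl25 and its receptor Ccr9 guide lymphocytes to the small intestine and were low in this tissue. Ccl25 was at 4.26, 3.15, 4.13 and 4.31 CPM in NE 1 to NE 4 and 3.82, 4.21, 4.99 and 4.44 CPM in EE 1 to EE 4, the narrowest spread of the 38 genes, with 1.58-fold between the highest and the lowest library. Its log2 fold change was 0.14 (SE 0.23). Ccr9 was at 3, 3.58, 2.82 and 2.98 CPM in NE 1 to NE 4 and 2.97, 2.49, 2.12 and 2.7 CPM in EE 1 to EE 4, with a log2 fold change of −0.27 (SE 0.25). Both overlap other annotated genes (Ccl25 overlaps Elavl1 on the opposite strand), so their reads may be shared.

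Ccl20, which epithelium over lymphoid follicles secretes, was at 5.21, 4.87, 5.63 and 10.3 CPM in NE 1 to NE 4 and 2.55, 8.04, 9.82 and 8.4 CPM in EE 1 to EE 4. NE 4 was highest and EE 1 lowest, and the log2 fold change was 0.17 (SE 0.39). Its receptor Ccr6, carried by B cells and some T cells, was not tested for want of reads, with 9, 5, 12 and 10 reads in NE 1 to NE 4 and 5, 3, 5 and 1 reads in EE 1 to EE 4.

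Among ligands of lymphoid tissue, Ccl21a, which with Ccr7 brings T cells and dendritic cells into lymphoid tissue (chr4:42772860-42773993, minus strand), was at 17.2, 12.6, 14.7 and 15.1 CPM in NE 1 to NE 4 and 7.43, 12.8, 11.6 and 3.81 CPM in EE 1 to EE 4. EE 1, EE 3 and EE 4 lay below all of NE, while EE 2 lay just above the lowest NE library. Ccl21a averaged 14.9 ± 1.88 CPM (SD, n = 4) for NE and 8.92 ± 4.12 CPM (SD, n = 4) for EE. Its log2 fold change was −0.74 (SE 0.32), with an adjusted p of 0.520 from edgeR. Without EE 4 the log2 fold change was −0.47, and the unadjusted p was above 0.05 without NE 1, NE 3, NE 4, EE 1 or EE 4. Mouse Ccl21 genes exist in near-identical copies, so the assignment of these reads to Ccl21a is uncertain. Ccl21a also overlaps a protein-coding gene on the opposite strand. Summed follicular stroma markers (5 of 6 in the table) were at 4.28 CPM in EE 4, 7.64 CPM in EE 1, 17.8 CPM in EE 2, 15.4 CPM in EE 3, and 10.5 to 23 CPM in NE, with Madcam1 at 0 in EE 4. This list shares Cr2 and Fcer2a with the B cell list, so it is not a measure of stroma separate from B cells. Summed lymphatic endothelium markers (6 of 6, none at 0) were at 398 CPM in EE 4, 292 CPM in EE 1, 244 CPM in EE 2, 381 CPM in EE 3, and 218 to 260.4 CPM in NE, a sum led by Prox1. Prox1 alone was at 355 CPM in EE 4 against 71.2 to 130 CPM in NE. Every other marker of this list lay below all of NE in EE 4. There Lyve1 was at 8.09 CPM (18.2 to 28.1 in NE), Flt4 at 3.17 CPM (9.61 to 16.3) and Pdpn at 11.1 CPM (18.9 to 30.0). Mmrn1 was at 13.6 CPM (41.9 to 52.9) and Reln at 7.93 CPM (23.8 to 30.2). The sum in EE 4 therefore follows Prox1 and not the other markers. The part of these cells in the Ccl21a values was not tested. Ccr7 was at 2.53, 2.58, 3 and 3.98 CPM in NE 1 to NE 4 and 1.06, 2.68, 4.83 and 1.43 CPM in EE 1 to EE 4, with the highest value in EE 3 and a log2 fold change of −0.24 (SE 0.44).

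Cxcl13 attracts B cells into follicles through Cxcr5. The ligand was at 12.6, 8.46, 11.3 and 16.6 CPM in NE 1 to NE 4 and 13.6, 10.7, 7.55 and 4.76 CPM in EE 1 to EE 4, with EE 3 and EE 4 below all of NE and a log2 fold change of −0.43 (SE 0.32). Cxcr5 was at 3, 1.86, 2.53 and 3.32 CPM in NE 1 to NE 4 and 1.06, 2.3, 2.27 and 0.634 CPM in EE 1 to EE 4, from 4 to 27 reads a library. EE 1 and EE 4 lay below all of NE and the other 2 EE libraries within its range. Its log2 fold change was −0.76 (SE 0.41), with an adjusted p of 0.544 from edgeR, and −0.47 without EE 4. Cxcr5 overlaps Bcl9l on the opposite strand. Summed B cell markers were at 44.2, 26.1, 35.1 and 57.2 CPM in NE 1 to NE 4 and 14.4, 48.2, 21.9 and 7.61 CPM in EE 1 to EE 4, lowest in EE 4 and EE 1 like Cxcr5, and their part in its values was not tested.

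Cxcl12, a ligand of stromal and endothelial cells that retains Cxcr4-bearing leukocytes (chr6:117168535-117181367, plus strand), was at 21.2, 27.5, 28.1 and 27.5 CPM in NE 1 to NE 4 and 19.7, 25.1, 22.2 and 2.7 CPM in EE 1 to EE 4. EE 4, with 17 reads, was far below every other library, and EE 1 also lay below all of NE. The log2 fold change was −0.59 (SE 0.46), with an adjusted p of 0.632 from edgeR, and −0.22 without EE 4. In EE 4 the summed markers of fibroblasts (448 CPM against 1458 to 1693 CPM in NE), blood endothelium (60.9 CPM against 136 to 147 CPM) and smooth muscle (670 CPM against 3447 to 5564 CPM) were low too, and their part in the Cxcl12 value was not tested. Cxcr4 was at 16.4, 16.1, 19.3 and 33.8 CPM in NE 1 to NE 4 and 19.5, 24.1, 23.1 and 11.7 CPM in EE 1 to EE 4, highest in NE 4 and lowest in EE 4, with a log2 fold change of −0.12 (SE 0.29) that was 0.18 without NE 4.

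**Figure D5:**
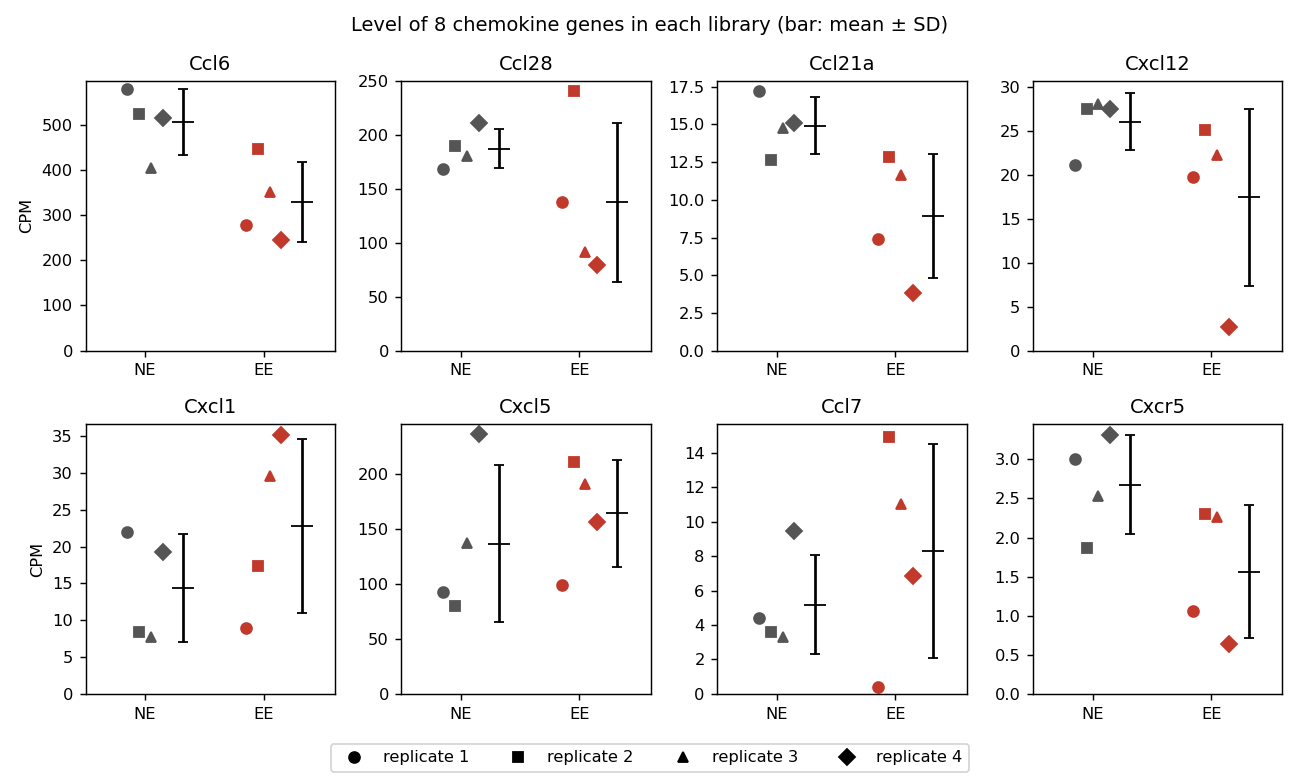
CPM of 8 chemokine genes in the 4 NE libraries (grey) and 4 EE libraries (red), with 1 symbol for each replicate number and the mean ± SD beside each group. Axes start at 0 and differ between panels. The groups overlap in every panel. EE 4 (diamond) is lowest for Ccl6, Ccl28, Ccl21a, Cxcl12 and Cxcr5 and highest for Cxcl1.

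The membrane-bound chemokines Cx3cl1 and Cxcl16 showed smaller differences. Cx3cl1 was at 81.8, 65.2, 76.5 and 50.9 CPM in NE 1 to NE 4 and 63.1, 56.5, 42.3 and 70.9 CPM in EE 1 to EE 4, with EE 3 lowest and EE 4 within the NE range, and a log2 fold change of −0.24 (SE 0.19). Its receptor Cx3cr1, a mark of resident gut macrophages, was at 12, 14.3, 19.1 and 15.6 CPM in NE 1 to NE 4 and 8.28, 15.5, 18.9 and 7.13 CPM in EE 1 to EE 4, with EE 1 and EE 4 below all of NE and a log2 fold change of −0.29 (SE 0.30) (−0.083 without EE 4). Cxcl16 was at 31.7, 35.4, 39.6 and 52.2 CPM in NE 1 to NE 4 and 33.1, 37.1, 53.5 and 30.0 CPM in EE 1 to EE 4, and its receptor Cxcr6, found on T cells and innate lymphoid cells, was at 5.68, 6.59, 6.66 and 12.1 CPM in NE 1 to NE 4 and 7.43, 6.51, 14.1 and 5.39 CPM in EE 1 to EE 4. For both the highest value was in EE 3 and the lowest in EE 4. Their log2 fold changes were −0.045 (SE 0.21) and 0.12 (SE 0.35), each changed sign when 1 library was left out, and each gene overlaps another on the opposite strand. Cx3cr1 overlaps several annotated genes, of which Gorasp1, Csrnp1 and Xirp1 are on the same strand, so its reads may be shared.

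The monocyte-attracting ligands Ccl2, Ccl7, Ccl12 and Ccl8 lie with the eosinophil ligand Ccl11 in 81 kb of chromosome 11 (chr11:82035571-82116799). Neighbouring genes did not share 1 order of libraries. Ccl7 had a log2 fold change of 0.71 (SE 0.66), with an adjusted p of 0.679 from edgeR, and the widest spread. This value was 0.29 without EE 2, 1.09 without EE 1, 1.16 without NE 4 and 0.24 with limma-voom. It was at 4.42, 3.58, 3.28 and 9.45 CPM in NE 1 to NE 4 and 0.425, 14.9, 11 and 6.82 CPM in EE 1 to EE 4, with 2 reads in EE 1 and 78 in EE 2. Ccl2 was at 8.53, 2.15, 2.72 and 5.3 CPM in NE 1 to NE 4 and 1.27, 5.74, 10.3 and 7.13 CPM in EE 1 to EE 4, also lowest in EE 1. Ccl8 was at 9.16, 11.5, 10.1 and 12.9 CPM in NE 1 to NE 4 and 5.52, 9.38, 13.1 and 0.951 CPM in EE 1 to EE 4, with EE 4 at 6 reads and EE 3 the highest of the 8. Ccl11 ranged over 5.54 to 9.78 CPM (NE) and 1.43 to 12.1 CPM (EE) and Ccl12 over 1.31 to 2.49 CPM (NE) and 0.476 to 2.12 CPM (EE), both lowest in EE 4. Their log2 fold changes were −0.58 (SE 0.52) for Ccl8, −0.53 (SE 0.50) for Ccl11 and −0.64 (SE 0.47) for Ccl12, and without EE 4 these were −0.19, −0.20 and −0.34. Ccr2, the monocyte receptor of Ccl2 and Ccl7, was at 11.5, 14.2, 12 and 25.7 CPM in NE 1 to NE 4 and 7.43, 16.7, 21.9 and 4.44 CPM in EE 1 to EE 4, lowest in EE 4 and EE 1 and with a log2 fold change of −0.32 (SE 0.45) that was −0.0093 without EE 4.

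A second group on chromosome 11 (chr11:83525778-83664683) holds Ccl5, Ccl9, Ccl6, Ccl3 and Ccl4, all 5 with negative log2 fold changes. Ccl3 and Ccl4, made by activated leukocytes, ranged over 3.95 to 14.2 CPM (NE) and 2.42 to 11.1 CPM (EE) and over 2.53 to 8.29 CPM (NE) and 2.34 to 9.57 CPM (EE). Ccl3 was highest in NE 2 and EE 2 and Ccl4 in EE 2 and NE 4. Ccl5, made by T cells and natural killer cells, ranged over 3.32 to 5.3 CPM (NE) and 1.59 to 6.51 CPM (EE). Their log2 fold changes were −0.62 (SE 0.52), −0.36 (SE 0.50) and −0.26 (SE 0.40). For Ccl3 the value was −1.21 without EE 2 and −0.23 without NE 2, and for Ccl4 it was −1.05 without EE 2 and −0.12 without NE 4.

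Of the interferon-induced ligands of Cxcr3, Cxcl9 was at 12.9, 11.6, 17.6 and 11.9 CPM in NE 1 to NE 4 and 4.03, 7.66, 26.3 and 6.66 CPM in EE 1 to EE 4. EE 3 stood alone above all other libraries, and the remaining EE libraries lay below all of NE. Cxcl10 ranged over 3.3 to 4.81 CPM (NE) and 1.49 to 6.8 CPM (EE), with the same library highest and EE 1 lowest. The log2 fold changes, −0.26 (SE 0.48) and −0.21 (SE 0.40), were −1.13 and −0.72 without EE 3. Cxcl11 and Cxcr3 were not tested. Cxcl11 had 3, 21, 4 and 0 reads in NE 1 to NE 4 and 0, 5, 2 and 0 reads in EE 1 to EE 4. A count of 0 allows up to 3 counts, which is 0.497 CPM in NE 4, 0.637 CPM in EE 1 and 0.476 CPM in EE 4. Cxcr3 had 3 to 11 reads a library.

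The remaining ligands were low or overlapped between groups. Cxcl14, a chemokine of epithelium and stroma, ranged over 33.8 to 74.3 CPM (NE) and 24.9 to 78.9 CPM (EE), highest in EE 3 and NE 4. Ccl22, which dendritic cells secrete, ranged over 1.29 to 5.47 CPM (NE) and 0.425 to 4.83 CPM (EE), and its neighbour Ccl17, not tested, had 2 to 23 reads a library. Ccl24, another eosinophil ligand, was not tested, with 4 to 12 reads. Ccl27a ranged over 1.43 to 1.89 CPM (NE) and 1.06 to 2.57 CPM (EE) and overlaps Il11ra1 on the opposite strand. Log2 fold changes were −0.17 (SE 0.36) for Cxcl14, −0.46 (SE 0.66) for Ccl22 and 0.19 (SE 0.36) for Ccl27a.

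By kind, 10 of the 11 receptors tested and 19 of the 27 ligands tested were lower in EE, with median log2 fold changes of −0.24 in each. Of all genes tested 49.7% were lower. The neutrophil-attracting ligands (3 of 4 higher) and the epithelial CC ligands (3 of 4 higher) were the roles in which most genes were higher. The CC receptors Ccr1, Ccr2, Ccr7, Ccr9 and Ccr10 had log2 fold changes from −0.32 to −0.20. Without EE 4 those of Ccr1 and Ccr10 were 0.030 and 0.078, and those of Ccr2, Ccr7 and Ccr9 were −0.0093, −0.017 and −0.29. Cxcr4 was at 0.072 without EE 4, while Cxcr2, Cxcr5 and Cx3cr1 stayed below 0. Without NE 4 the log2 fold changes of Ccr1, Ccr2, Cxcr2 and Cxcr4 were 0.19, 0.011, 0.15 and 0.18. Those of Ccr7, Ccr9, Ccr10, Cxcr5 and Cx3cr1 stayed below 0 without NE 4.

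Other genes of the chemokine system were read from lists of atypical receptors, processing enzymes, signalling and adhesion. In each list 0 genes had an edgeR adjusted p under 0.05, and 49.7% of all genes tested were lower in EE. Apart from Ackr3, genes are named from these lists because their edgeR unadjusted p was under 0.05. This held for 9.48% of all genes tested. Of 10 tested genes among atypical receptors and ligands outside the name rule, 8 had lower values in EE, with a median of −0.37 on the log2 scale. At an edgeR unadjusted p under 0.05 there were 1 higher and 2 lower. Ccrl2, a receptor that binds but does not signal, averaged 9.22 ± 1.79 CPM over the NE libraries and 4.27 ± 2.24 CPM over the EE libraries (SD, n = 4 in each), and its log2 fold change was −1.11 (SE 0.34). Mif, a cytokine that can bind Cxcr2 and Cxcr4, was at 24.8, 21.5, 27.2 and 30.3 CPM in NE 1 to NE 4 and 40.1, 40.4, 42.6 and 32.2 CPM in EE 1 to EE 4, so that all EE values stood above all NE values, with a log2 fold change of 0.58 (SE 0.15) and an edgeR adjusted p of 0.520. Rarres2, the precursor of the leukocyte attractant chemerin, was at 30.3, 26.2, 22.4 and 24 CPM in NE 1 to NE 4 and 20.4, 17.6, 17.1 and 4.28 CPM in EE 1 to EE 4, so that all EE values lay below all NE values, EE 4 far below the other EE libraries. Its log2 fold change was −0.80 (SE 0.36), with an edgeR adjusted p of 0.520. Of all genes tested, 2.87% had all EE values above all NE values and 2.02% had them below. Ackr3, which scavenges Cxcl12, averaged 24.4 ± 5.71 CPM over the NE libraries and 28 ± 7.71 CPM over the EE libraries.

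Among 5 chemokine-processing enzymes 2 were lower, and 1 higher and 1 lower had an edgeR unadjusted p under 0.05. Dpp4, which trims the start of several chemokines, was at 74.7, 61.3, 78.4 and 57.7 CPM in NE 1 to NE 4 and 53.5, 61.2, 50.9 and 41.1 CPM in EE 1 to EE 4. Adam10, which sheds Cx3cl1 and Cxcl16, averaged 282 ± 32.5 CPM over the NE libraries and 350.0 ± 33.8 CPM over the EE libraries. Of 18 signalling and desensitisation genes 12 were lower (median −0.083) and 0 had an unadjusted p under 0.05. Of 9 gut homing adhesion genes 7 were lower (median −0.38), and 2, both lower, had an edgeR unadjusted p under 0.05. Itgb7, an integrin subunit of gut-homing lymphocytes, averaged 7.76 ± 0.928 CPM over the NE libraries and 4.35 ± 2.23 CPM over the EE libraries. Selplg, a selectin ligand, averaged 13.1 ± 2.1 CPM over the NE libraries and 7.75 ± 3.47 CPM over the EE libraries. Of 8 NF-kappaB genes 3 were lower (median 0.072), and their summed level was 474 to 496 CPM among NE libraries and 459, 485, 495 and 593 CPM in EE 1 to EE 4.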

How the data were processed

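Libraries of total RNA from distal colon were depleted of ribosomal RNA, kept strand and were read as single ends of 50 bases on a HiSeq, as the labels' protocols state. Novoalign 2.08.01, DESeq 1.14.0 and the build mm10 are named in the submitters' processing notes. Which annotation, counting program and strand setting were used is not given in the sources used here. The 13 chemokine genes that overlap another annotated gene may therefore share reads with it. The authors deposited 1 table of raw read counts for 16130 genes. Its other columns are the authors' own log2 fold change and adjusted p-value (FDR), per the file headers, which do not name the numerator. The smallest total over 8 libraries was 12 counts.

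The analysis used edgeR 4.0.16 in R 4.3.3: filterByExpr kept 14311 genes, TMM scaled the libraries, and the robust quasi-likelihood test compared EE with NE, adjusted by Benjamini-Hochberg over all genes tested with a threshold of 0.05. A standard error is the log2 fold change divided by the square root of F. CPM use the TMM-scaled library size. The biological coefficient of variation was 0.219, and totals of 4735764 to 10586851 counts limit low genes. Exon lengths, positions and overlaps came from GENCODE M21 (GRCm38, the same build as mm10), and promoter windows from RefSeq (GRCm38.p6). No 2 libraries agreed within sampling noise (the lowest chi-square per degree of freedom was 7.15).

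The members and lists were chosen with earlier results of these data known. Values in all libraries are given for genes with an unadjusted p under 0.05 or groups that do not overlap, for the 6 with the highest mean CPM and for 8 ligand and receptor pairs of the gut. Cxcl1, Cxcl3, Cxcr2, Ccr1, Ccl2, Ccl7, Ccl8, Ccr2 and Cxcl9 were added after their values were seen, as were the promoter motif and the ranking of libraries. From the other lists genes with an unadjusted p under 0.05 are named, and Ackr3 was added. The values of 1 tested member are not reported here by name, while the counts and medians over members include it. Alternatives were DESeq2 1.42.0, limma-voom (limma 3.58.1), upper-quartile and RLE scaling, a filter of 1 CPM in 4 libraries or none, the replicate number as a block, and each library left out. On counts simulated for EE against NE with 14311 genes, edgeR recovered 71 of 100 genes changed 2-fold and 92 of 100 changed 4-fold, with 14 false calls. The changed genes were drawn at random from all genes tested, and each gene was simulated independently. No simulated library had a deviation shared by many genes, such as that of EE 4. These recoveries are therefore not those of the chemokine genes in these libraries.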

Additional observations from a re-analysis of the deposited data

Results flagged for a closer look

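In each group of 4 libraries the highest or lowest value was compared with the others, and 7 of 86 such groups over the 43 chemokine genes had 1 library whose gap to the nearest other was, as a share of the group's range, above Dixon's critical value for 4 samples. Chance flags about 1 in 20 groups. In NE, library NE 4 stood above the others for Ccl20 (10.3 CPM against 4.87 to 5.63) and Cxcr6 (12.1 CPM against 5.68 to 6.66). NE 2 stood above for Cxcl11 (3.01 CPM against 0 to 0.474) and below for Ccl25 (3.15 CPM against 4.13 to 4.31). NE 1 stood below for Cxcl12 (21.2 CPM against 27.5 to 28.1). In EE, EE 2 stood above for Ccl4 (9.57 CPM against 2.34 to 2.87) and EE 3 above for Cxcl9 (26.3 CPM against 4.03 to 7.66).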

How the results depend on the processing

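In all 15 alternative settings 0 chemokine genes had an adjusted p under 0.05, and the lowest adjusted p of any was 0.101 (Ccl28 and Ccl6 without EE 2). Over all genes DESeq2 called 12, the fits without 1 library called 0 to 1 (1 without EE 2), and the other settings called 0. Chemokine genes with an unadjusted p under 0.05 numbered 2 in the scaling, filter and tool alternatives, and 1 to 6 without 1 library: 1 without NE 1, NE 3 or EE 4 (4.58%, 6.43% and 6.64% of all genes tested), 3 of 40 without EE 1 (10.4%), 6 of 38 without EE 2 (18.8%) and 4 of 39 without EE 3 (7.55%). The median log2 fold change over the tested chemokine genes ran from −0.35 to −0.034 without 1 library. No pairing of the libraries by the numbers of the labels was seen. Correlations of same-numbered deviations were 0.25, 0.010, −0.18 and −0.037, and of the NE libraries only NE 1 correlated best with its own number. These correlations are too few to exclude a pairing. With the replicate block 0 genes were called, 3 chemokine genes had an unadjusted p under 0.05 (Ccl3 was added) and the median was −0.30.

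Tool, scaling, filter and block changed the sign of 0 of the 38. Leaving out 1 library changed the sign of 17, and the cause was not tested. Among those reported by name the log2 fold changes then ran from −6.8e-05 to 0.47 for Ccl20, −0.014 to 0.36 for Ccl27a, −0.62 to 0.010 for Ccl5, −0.16 to 0.085 for Ccl9, −0.50 to 0.19 for Ccr1, −0.53 to 0.078 for Ccr10, −0.73 to 0.011 for Ccr2, −0.72 to 0.028 for Cxcl10, −0.66 to 0.11 for Cxcl14, −0.24 to 0.11 for Cxcl16, −0.45 to 0.22 for Cxcl2, −0.31 to 0.33 for Cxcl3, −1.13 to 0.0040 for Cxcl9, −0.39 to 0.15 for Cxcr2, −0.24 to 0.18 for Cxcr4 and −0.26 to 0.41 for Cxcr6. Genes with fewer than about 30 reads in a library, such as Cxcr5, Ccr10 and Ccr9, are limited by counting error.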

Other observations

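Neighbouring chemokine genes were also set against each other within each library, which does not depend on library scaling. These ratios were chosen after the values were seen and are given without a test. The ratio of Ccl6 to Ccl9, which lie side by side and share the receptor Ccr1, was 12.7, 10.6, 10.5 and 8.22 in NE 1 to NE 4 and 6.0, 8.49, 6.30 and 7.41 in EE 1 to EE 4, so that 3 of 4 EE libraries lay below all of NE and EE 2 lay between NE 4 and NE 3. The ratio of Cxcl2 to Cxcl1 was 1.88, 8.49, 6.36 and 5.29 in NE 1 to NE 4 and 2.48, 6.21, 1.83 and 1.91 in EE 1 to EE 4. It was therefore near 2 in NE 1, EE 1, EE 3 and EE 4 and above 5 in the other 4 libraries, a split that crosses the housing groups. The ratio of Cxcl3 to Cxcl2 varied less, between 0.157 and 0.309 in NE and between 0.217 and 0.356 in EE.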
